A study of Mus musculus with 70 samples.

Results

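The difference between HAB and LAB mice was contrasted between 2 hypothalamic nuclei, the paraventricular nucleus (PVN) and the supraoptic nucleus (SON). HAB and LAB mice were bred from CD-1 (ICR) stock for high and for low anxiety-related behaviour. All arrays titled PVN (10) or SON (10) were used, 20 of the 70 arrays of a series that covers 7 brain regions on the MPIP24k cDNA array. For each of the 22824 probes, log2 HAB/LAB in the SON was subtracted from log2 HAB/LAB in the PVN. The question was which genes differed between the lines in one nucleus and not, or oppositely, in the other.

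The animals were males of 10 weeks. RNA of 6 HAB mice was pooled, and so was RNA of 6 LAB mice, for each nucleus separately. The PVN was punched at the midline with a diameter of 1 mm and the SON on both sides next to the optic tract with a diameter of 0.5 mm. Both pools of a nucleus were hybridized together on 10 arrays, with HAB in Cy3 on 5 of them and in Cy5 on the other 5. The 10 arrays of a nucleus thus repeat the measurement of the same 2 RNA pools. Every p-value below compares these pools at array level, with the spread between arrays as the error, and says nothing about the spread between mice.

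Both nuclei hold magnocellular neurons, which make vasopressin (Avp) or oxytocin (Oxt) and release the peptide from the posterior pituitary. The PVN also holds parvocellular neurons, which make the releasing hormones that drive the pituitary axes, among them thyrotropin-releasing hormone (Trh). Peptides leave such neurons through dense-core vesicles, whose fusion is tuned by calcium sensors and related proteins of the synaptotagmin family.

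The labelled tissue was checked by the rank of marker probes among all probes of a channel. Trh lay at percentiles 83.1 in HAB and 84.3 in LAB of the PVN, against 39.7 in HAB and 44.7 in LAB of the SON. Avp lay at percentiles 73.0 in HAB and 56.3 in LAB of the PVN, against 80.3 in HAB and 50.6 in LAB of the SON. Oxt was dim in the SON, above the empty spots on 4 of 10 arrays in either line, so that this defining marker was barely detected there. The brightest of 6 probes for the myelin gene Mbp lay at percentiles 98.6 to 99.7 in the 4 pools, and a second one at 86.1 to 96.9.

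Signal was weaker in the SON. The median probe was 3.62 to 7.97 times the median empty spot in the PVN channels and 1.38 to 3.04 times in the SON channels. The SD of log2 HAB/LAB over all probes of an array was 0.576 to 0.657 in the PVN and 0.752 to 0.832 in the SON. Arrays agreed little with each other over all probes, with a median correlation of -0.0059 between PVN arrays, -0.0476 between SON arrays and 0.0091 between arrays of the 2 nuclei. Over probes above the empty spots in all 4 pools these medians were 0.0103, -0.0302 and 0.0386. The pairs include arrays of the same and of swapped dye orientation. The medians thus cannot tell how many probes carried a line difference that repeated from array to array. All PVN arrays were scanned on 1 day and all SON arrays on another, so that nucleus and scan day cannot be told apart.

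Most probes past the test between lines passed it in a single nucleus, fewer passed it in both, and 1 probe for synaptotagmin 4 (Syt4) was opposite. In the PVN 69 probes (0.302%) and in the SON 131 probes (0.574%) passed the test between lines (limma, Benjamini-Hochberg adjusted p below 0.05 over all probes). Of these, 27 probes passed in both nuclei. Among these 27 the line difference had the same direction in 26, and 1 was opposite. Of the probes past the test in the PVN alone (42), 32 had the same sign in the SON, and of those past it in the SON alone (104), 62 had the same sign in the PVN. Over all probes 50.7% had the same sign in both. The fit gave each probe 1 spread for both nuclei, although ratios spread more on the SON arrays. The counts per nucleus, and the sets past the test in one nucleus alone, rest on this. With each array weighted by its own spread (array weights), 152 probes passed in the PVN and 53 in the SON. Which nucleus had more calls thus depended on the setting.

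**Figure D1:**
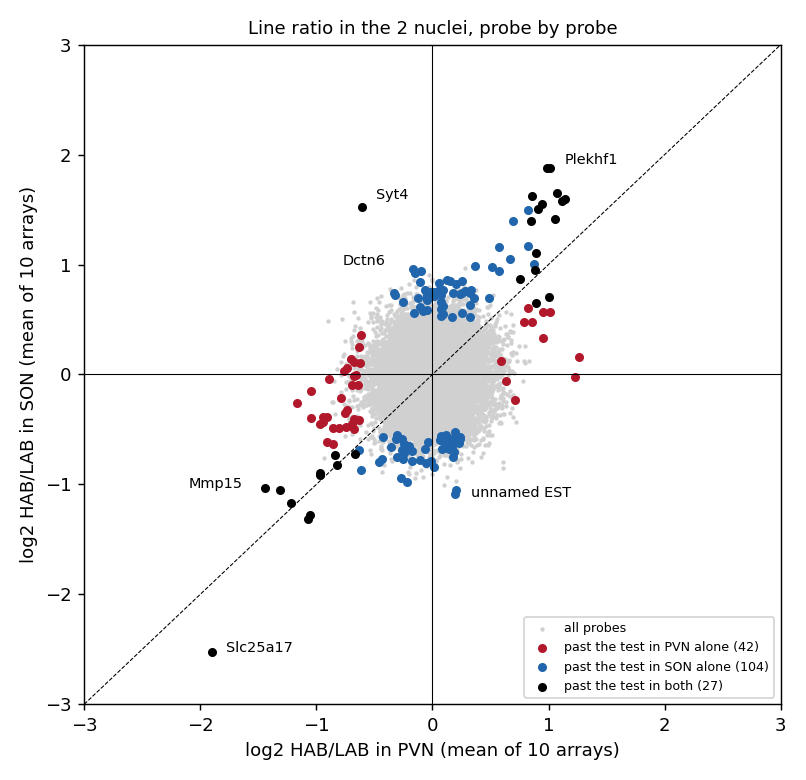
Each point is 1 probe, with log2 HAB/LAB in the PVN on the x axis and in the SON on the y axis, each the mean of 10 arrays. Black points passed the test in both nuclei (27), red points in the PVN alone (42) and blue points in the SON alone (104). All black points but Syt4 lie in the lower left or upper right quadrant, and the dashed line marks equal ratios.

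The contrast itself, PVN minus SON, was past the threshold for 3 of 22824 probes (0.0131%), with 1 higher (0.00438%) and 2 lower (0.00876%) in the PVN. At an unadjusted p below 0.05 there were 1800 probes (7.89%). The 3 probes were those of Syt4, of dynactin subunit 6 (Dctn6) and of an EST without a gene name. Under the classes used here, Syt4 was opposite in the nuclei, Dctn6 and the EST passed in the SON alone, and none passed in the PVN alone. When differences of known size were added to 50 simulated probes each, the same fit called 2% of those with a log2 difference of 0.5, 40% with 1 and 94% with 2. In the simulation a 2-fold difference was thus missed more often than it was called. All sizes were added at once and gave 108 calls, so the adjusted threshold was looser there than with the 3 calls here. Its noise was drawn as normal and independent between probes. These shares therefore cannot be carried over to the contrast itself.

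Syt4, an atypical synaptotagmin of dense-core vesicles that is abundant in neuroendocrine neurons, had the largest difference of these 3. At the probe with this difference the 10 PVN arrays lay at -1.22 to -0.27 with a median of -0.53, and the 10 SON arrays at 1.11 to 2.01 with a median of 1.50. All PVN arrays were thus below 0 and all SON arrays above it. The mean log2 HAB/LAB was -0.61 ± 0.33 in the PVN and 1.53 ± 0.28 in the SON (SD, n = 10 arrays each), which is 1.53-fold lower and 2.88-fold higher in HAB than in LAB. The difference was -2.14 (SE 0.19, limma adjusted p = 1.35e-06). It was the same in both dye orientations, with -0.65 in the PVN and 1.48 in the SON for HAB in Cy3, and -0.57 in the PVN and 1.57 in the SON for HAB in Cy5. The line difference within the PVN was close to the threshold (limma adjusted p = 0.0429) and within the SON far from it (1.74e-07). The PVN call, on which the opposite direction rests as a call, was lost in 16 of 20 fits that left out 1 array (adjusted p up to 0.203) and in 5 of 21 other settings (up to 0.581), with a PVN value of -0.68 to -0.57 in these settings.

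The array carries 4 probes for Syt4, and the opposite direction was seen at 1 of them. The brightest probe lay at -0.27 to 0.48 on the PVN arrays (median 0.01) and at -0.20 to 1.31 on the SON arrays (median 0.64). Its mean was 0.07 in the PVN and 0.60 in the SON, a difference of -0.53 (SE 0.16, limma adjusted p = 0.333), with the nuclei overlapping. It passed in 2 of 21 other settings, with the deposited ratios (0.0415) and over probes above the empty spots in all 4 pools (0.0276). In the SON this probe depended on the dye, at 1.16 on average where HAB was in Cy3, against 0.04 where it was in Cy5. The other two had differences of 0.35 (95% interval -0.06 to 0.75) and 0.14 (-0.36 to 0.64). The 4 probes were above the empty spots on at least 8 of 10 arrays in every pool, and their sequences were not analysed here. The opposite line difference therefore belongs to 1 probe, and for the gene as a whole the probes disagreed.

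**Figure D2:**
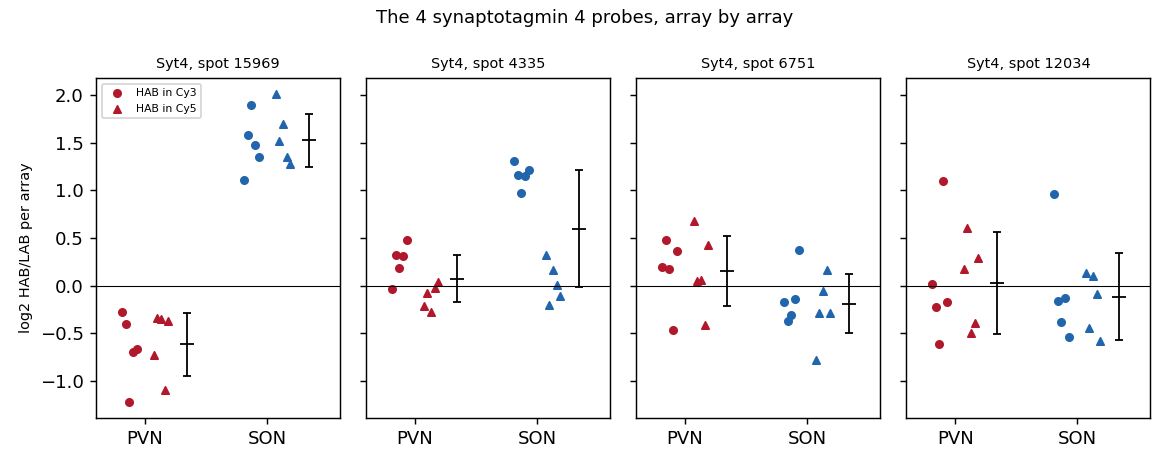
Log2 HAB/LAB per array is shown for the 4 Syt4 probes, with PVN arrays in red on the left of each panel and SON arrays in blue on the right, circles where HAB was in Cy3 and triangles where it was in Cy5. Black bars give mean and SD of 10 arrays. The nuclei are separated in the first panel (means -0.61 in the PVN and 1.53 in the SON) and overlap at the rest.

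Dctn6, a subunit of dynactin, the complex that links dynein to its cargo, was higher in HAB in the SON. The SON arrays lay at 0.30 to 1.77 and were all above 0, whereas the PVN arrays lay at -0.87 to 0.43 with 5 on either side of 0. The mean was -0.15 ± 0.48 in the PVN and 0.93 ± 0.52 in the SON (SD, n = 10 arrays each). The difference was -1.08 (SE 0.18, limma adjusted p = 0.0311), and the 95% interval in the PVN was -0.41 to 0.11. The ratio moved with the dye in both nuclei, with 0.27 in the PVN and 1.30 in the SON for HAB in Cy3, and -0.57 in the PVN and 0.55 in the SON for HAB in Cy5. The PVN was below the SON in either orientation. This call was lost with 14 of the 20 arrays when 1 was left out, with adjusted p-values up to 0.114, and in 5 of 21 other settings, among them each dye orientation alone.

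The EST lay at -0.30 to 1.00 on the PVN arrays and at -1.95 to -0.34 on the SON arrays, without overlap. Its difference was 1.26 (SE 0.21, limma adjusted p = 0.0311), a call lost in 15 of 20 fits that left out 1 array (adjusted p up to 0.102) and in 5 of 19 other settings (up to 0.324). It was above the empty spots on all 10 PVN arrays in both lines, but on 1 of 10 SON arrays in either line. The SON value is thus a ratio of signals at the level of empty spots, and no fold is given for it.

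The arrays of the nuclei were also compared without a variance model. For 11 probes (0.0482%) all 10 PVN arrays lay above or all below the 10 SON arrays with at least 1.3-fold between the means, 3 with the PVN higher and 8 with the PVN lower. Syt4 and the EST were 2 of them, and the others did not pass the contrast. The deposited table of log2 ratios holds 10 of the 11 probes, and 3 of these 10 were also without overlap there. The separation thus mostly depended on the processing. Some of the 11 probes are described here with their arrays, chosen after their values were seen.

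Swi5, which acts in homologous recombination, had a mean of -0.34 in the PVN and 0.74 in the SON (difference -1.08, SE 0.20, limma adjusted p = 0.0659). Its PVN arrays lay at -0.80 to 0.05 and its SON arrays at 0.16 to 1.99, and both probes of the gene had a negative difference. Dpysl2, a regulator of microtubules in growing axons, lay at -1.15 to -0.07 in the PVN and at 0.02 to 0.76 in the SON at 1 of its 3 probes, so that all PVN arrays were lower in HAB and all SON arrays higher. The means were -0.62 and 0.36, with a difference of -0.98 (limma adjusted p = 0.0651). A second Dpysl2 probe had -0.06 in the PVN and -0.23 in the SON and did not share this.

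Hspa8, the constitutive heat shock cognate 70 chaperone, lay at -0.80 to 0.04 in the PVN and at 0.14 to 1.66 in the SON, with 3 of its 4 probes below 0 in the difference. Sh3bp5, a binding partner of Bruton's kinase and JNK, lay at -0.41 to 0.20 in the PVN and at 0.22 to 1.66 in the SON. In both genes the separation came from higher values in the SON, with means of -0.25 and 0.66 for Hspa8 and of -0.13 and 0.70 for Sh3bp5, PVN first.

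Tmem159, which acts in lipid droplet assembly, had the opposite sign among these genes. One of its probes lay at -0.14 to 0.50 in the PVN and at -1.08 to -0.15 in the SON, with means of 0.19 and -0.59. A second probe of this gene had a difference of -0.02.

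**Figure D3:**
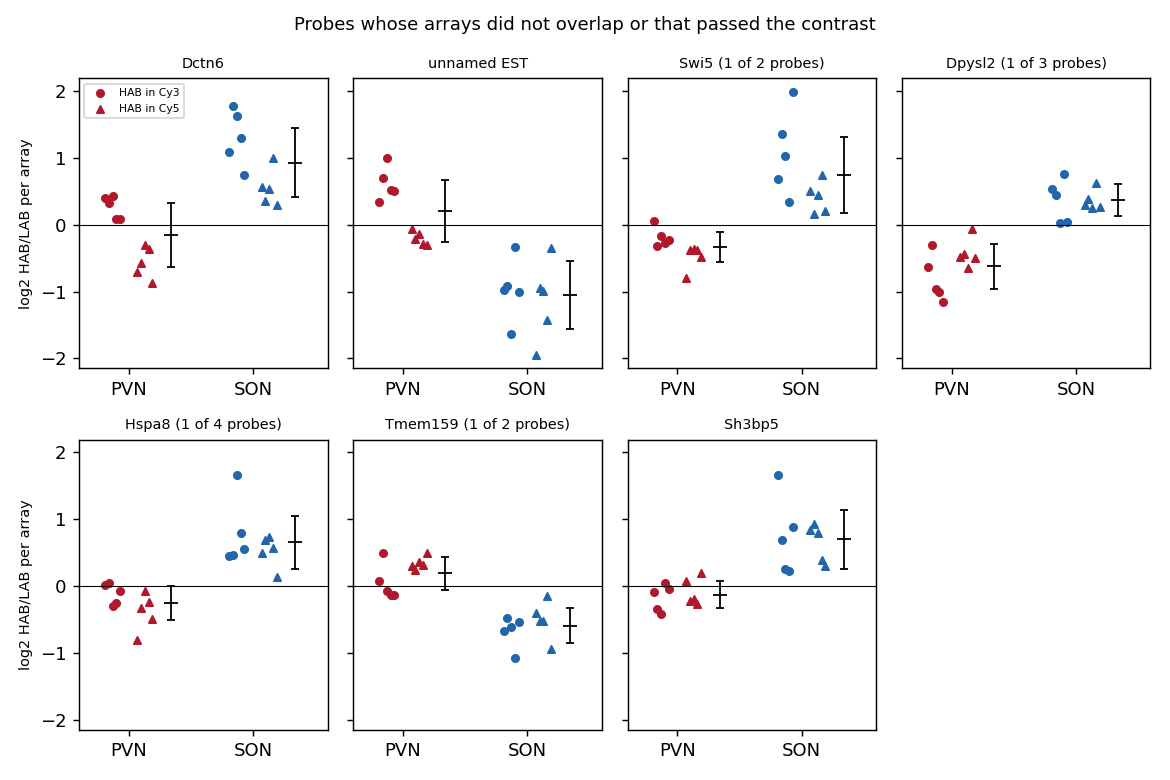
Log2 HAB/LAB per array is shown for 7 probes that passed the contrast or whose arrays did not overlap, PVN arrays in red on the left and SON arrays in blue on the right of each panel, circles where HAB was in Cy3 and triangles where it was in Cy5. Black bars give mean and SD of 10 arrays. Dctn6 differs between dyes in both nuclei, with the PVN below the SON in either orientation.

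Some genes passed the test between lines in the PVN alone. Sdc2, a heparan sulfate proteoglycan of the cell surface, lay at -2.02 to -0.70 on the PVN arrays and at -1.06 to 0.92 on the SON arrays. Tmem30a, the subunit that carries phospholipid flippases to the membrane, lay at -1.80 to -0.57 in the PVN and at -0.82 to 0.32 in the SON. Both were thus lower in HAB on all 10 PVN arrays, 2.25-fold and 2.07-fold on average, and mixed in sign in the SON. Their contrasts were -0.91 (limma adjusted p = 0.246) and -0.90 (0.135), which did not pass. Each of these genes has 4 probes, of which 1 passed in the PVN, and the values above are those of this probe. Over the 4 probes the PVN means ran from -1.17 to 0.40 for Sdc2 and from -1.05 to 0.04 for Tmem30a. The contrasts ran from -0.91 to 0.56 and from -0.90 to 0.20, so that the probes disagreed in sign.

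Further genes were of this kind. Cntn1, an axonal adhesion molecule, had a mean of -0.62 in the PVN and 0.11 in the SON at 1 of its 4 probes. Its brightest probe had the other signs, with 0.21 in the PVN and -0.13 in the SON, and passed in neither. Nap1l5, an imprinted relative of nucleosome assembly proteins, had -0.63 in the PVN and 0.25 in the SON at 1 of its 3 probes. At the probes that passed, all 10 PVN arrays were below 0 in both genes. Hmgn3, a nucleosome-binding protein, was higher in HAB on all PVN arrays with both of its probes (means 0.95 and 1.01), and its SON means of 0.57 and 0.56 were of the same sign. Passing in one nucleus alone was therefore no sign of a difference between the nuclei for Hmgn3, whose contrasts were 0.39 and 0.44 with adjusted p-values of 0.653 and 0.602.

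Other genes passed the test in the SON alone. Rpl10a, a ribosomal protein, had a mean of 0.36 in the PVN and 0.99 in the SON (limma adjusted p = 0.000236 in the SON) at 1 of its 2 probes, whereas the other had -0.01 in the PVN and 0.03 in the SON. Cgref1 had -0.10 in the PVN and 0.94 in the SON. Enpp2, the enzyme autotaxin that makes lysophosphatidic acid, had -0.10 in the PVN and 0.84 in the SON at 1 of its 3 probes, whereas its brightest probe had 0.07 and 0.31. Mlc1, a membrane protein of astrocyte endfeet, had 0.07 in the PVN and 0.72 in the SON, and 0.10 and 0.45 at its second probe. In the SON this second probe depended on the dye, with 1.04 for HAB in Cy3 and -0.14 for HAB in Cy5. The Enpp2 probe that passed had 1.35 and 0.33 in these orientations. In LAB it was above the empty spots on 6 of 10 SON arrays.

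Lower in HAB in the SON were Rab23, a small GTPase of hedgehog signalling, with 0.24 in the PVN and -0.58 in the SON, and Tac1, the precursor of substance P. Tac1 was bright in all 4 pools and had -0.46 in the PVN (limma adjusted p = 0.17) and -0.79 in the SON (0.000843), a difference of 0.33 that did not pass (0.652). Zdhhc9, a palmitoyltransferase, and Slc12a3, the thiazide-sensitive cotransporter of sodium and chloride, also passed in the SON with -0.70 and -0.75, but in 1 dye orientation. Their SON means with HAB in Cy3 were -0.03 and 0.04, against -1.37 and -1.54 with HAB in Cy5. A second Zdhhc9 probe had -0.09 in the SON and a contrast of -0.07. All genes of the last 4 paragraphs were picked after their values were seen, to show the kinds of pattern.

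Other genes with large line differences had the same direction in both nuclei. Slc25a17, a carrier of cofactors in the peroxisomal membrane, lay at -2.85 to -1.40 on the PVN arrays and at -3.53 to -1.74 on the SON arrays, all below 0. This is 3.73-fold lower in HAB in the PVN and 5.76-fold lower in the SON. The contrast was 0.63 (95% interval 0.12 to 1.13, limma adjusted p = 0.511). A second probe of the gene had no such difference, with means of 0.12 in the PVN and -0.10 in the SON.

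Glo1, which detoxifies methylglyoxal, had means below 0 at all 5 of its probes in both nuclei. At the probe with the largest fall in the SON the PVN arrays lay at -1.69 to -0.71 and the SON arrays at -2.19 to -0.32. The contrast of this probe was 0.22, and those of the 5 probes ran from -0.65 to 0.22 without passing. Mff, which recruits the fission factor Drp1 to mitochondria, had -1.08 and -0.97 in the PVN, against -1.31 and -0.89 in the SON, at 2 of its 3 probes. Zfp672, a zinc finger protein, had -1.22 in the PVN and -1.17 in the SON, a contrast of -0.05 with a 95% interval of -0.46 to 0.37. Mmp15, a membrane-bound metalloproteinase, had -1.45 in the PVN and -1.03 in the SON.

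Among genes higher in HAB in both nuclei, some had larger means in the SON, but no contrast passed. The beta globin Hbb-b1, which reports red blood cells in the tissue, was higher at all 3 probes, with means of 0.86 to 0.99 in the PVN and 1.10 to 1.88 in the SON. Rab6, a GTPase of Golgi traffic, had 0.94 and 1.12 in the PVN, against 1.55 and 1.58 in the SON, at the 2 of its 4 probes that passed. Plekhf1, an endosomal protein, lay at 0.80 to 1.30 in the PVN and at 0.94 to 2.94 in the SON. Their contrasts ran from -0.89 to -0.21, the smallest adjusted p being 0.188 for Hbb-b1. Cox8a, a subunit of cytochrome c oxidase, had 0.88 in the PVN and 0.95 in the SON at 1 of its 2 probes, whereas the other had -0.05 in the PVN and 0.25 in the SON and passed in neither. The probes of Hbb-b1 may also bind RNA of its near-identical paralog.

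**Figure D4:**
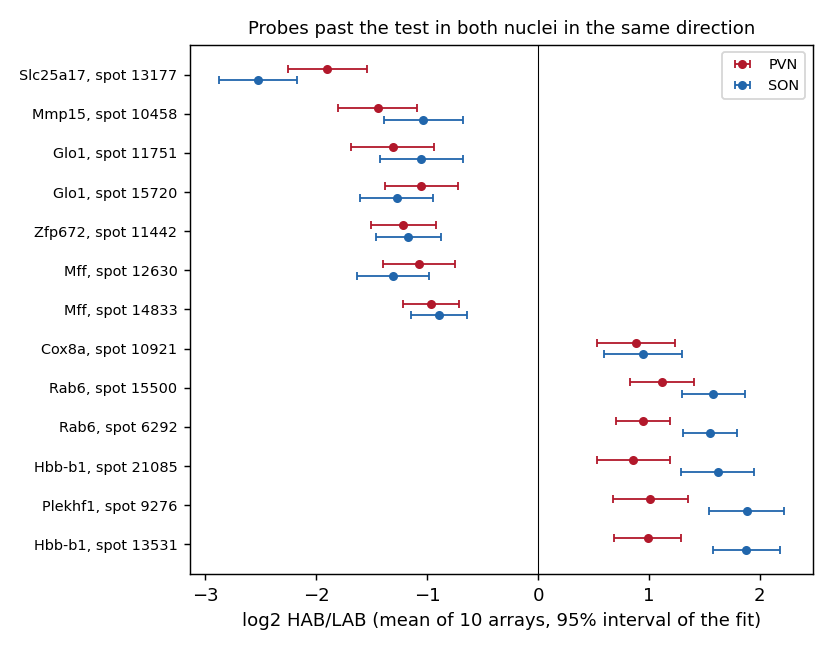
Log2 HAB/LAB (x axis, mean of 10 arrays with the 95% interval of the fit) is shown for 13 probes, PVN in red above SON in blue. They were picked from the 26 probes that passed the test between lines in both nuclei in the same direction. Syt4, which passed in both with opposite signs, is left out. The 7 probes lower in HAB and the 6 higher in HAB lie on the same side of 0 in both nuclei because they were picked so. Slc25a17 is at -1.90 in the PVN and -2.53 in the SON.

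For the magnocellular peptides no difference between the nuclei passed the test. Avp lay at 0.02 to 1.82 on the PVN arrays (median 0.94) and at -0.46 to 3.07 on the SON arrays (median 1.22). It was higher in HAB on 10 of 10 PVN arrays and 8 of 10 SON arrays, with means of 0.83 ± 0.63 and 1.17 ± 1.22 (SD). The line difference passed in the SON (limma adjusted p = 0.00919) and not in the PVN (0.182), and the contrast of -0.34 (SE 0.31) had an adjusted p of 0.84. In the SON the Avp ratio rested on the arrays with HAB in Cy3, with a mean of 2.07 against 0.27 with HAB in Cy5, and its printed neighbour is a probe for Hbb-b1 that was higher in HAB as well. Whether the bright neighbour had a part in the Avp value was not tested. Oxt had 0.27 in the PVN and 0.10 in the SON, but with 4 of 10 SON arrays above the empty spots in either line its SON ratio is mostly one of background, and no contrast is read from it.

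None of the 632 genes found on the array from the 24 lists passed the contrast, taking the brightest probe of a gene (0.0131% of all probes passed). Of 18 hypothalamic neuropeptides, 9 had a positive and 9 a negative contrast, with a median of 0.01 against -0.0006 over all probes. Cartpt, an anorexigenic peptide, had the smallest p of these, with -0.29 in the PVN and 0.43 in the SON (contrast -0.73, unadjusted p = 0.0015, not past the adjusted threshold). Among genes of neurosecretory processing, Cpe, carboxypeptidase E, had -0.40 in the PVN and -0.0010 in the SON, and Scg2, secretogranin II, had 0.06 and -0.32. Chgb and Furin, bright in the PVN, were above the empty spots on none of the HAB arrays of the SON, so that their SON ratios cannot be read.

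Among markers of cell types, 17 of 22 astrocyte genes (77.3%) had a negative contrast, against 50.1% of all probes, with a median of -0.165. The corresponding medians within the nuclei were -0.09 in the PVN and 0.01 in the SON. Of 24 oligodendrocyte genes 15 were negative, with a median of -0.14, but the most abundant ones went both ways. Mobp had 0.20 in the PVN and -0.41 in the SON, Cnp had 0.18 and -0.23, and Mbp had 0.24 and 0.73 at its brightest probe. The 6 Mbp probes ran from -0.50 to 0.46 in the contrast. Of microglia genes 10 of 16 (62.5%) were negative, and of endothelium and pericyte genes 11 of 26 (42.3%). All probes include many dim ones, whereas a list takes the brightest probe of each gene. Over the members of all 24 lists, counted once per list, 373 contrasts were negative and 288 positive. The median contrast was negative in 17 of the 24 lists, so a negative majority was common among lists.

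Of 76 cytosolic ribosomal proteins, 48 were negative in the contrast (63.2%), with medians of 0.07 in the PVN and 0.17 in the SON. Rpl12 had -0.09 in the PVN and 0.67 in the SON, and Rpl29 had -0.05 and 0.72. Of 47 genes of SNAREs and synaptic vesicles 32 were negative (68.1%), with a median of -0.09. Genes of oxidative phosphorylation were even, with 36 positive and 36 negative. No test was made on these medians, which include genes at the level of the empty spots in the SON.

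**Figure D5:**
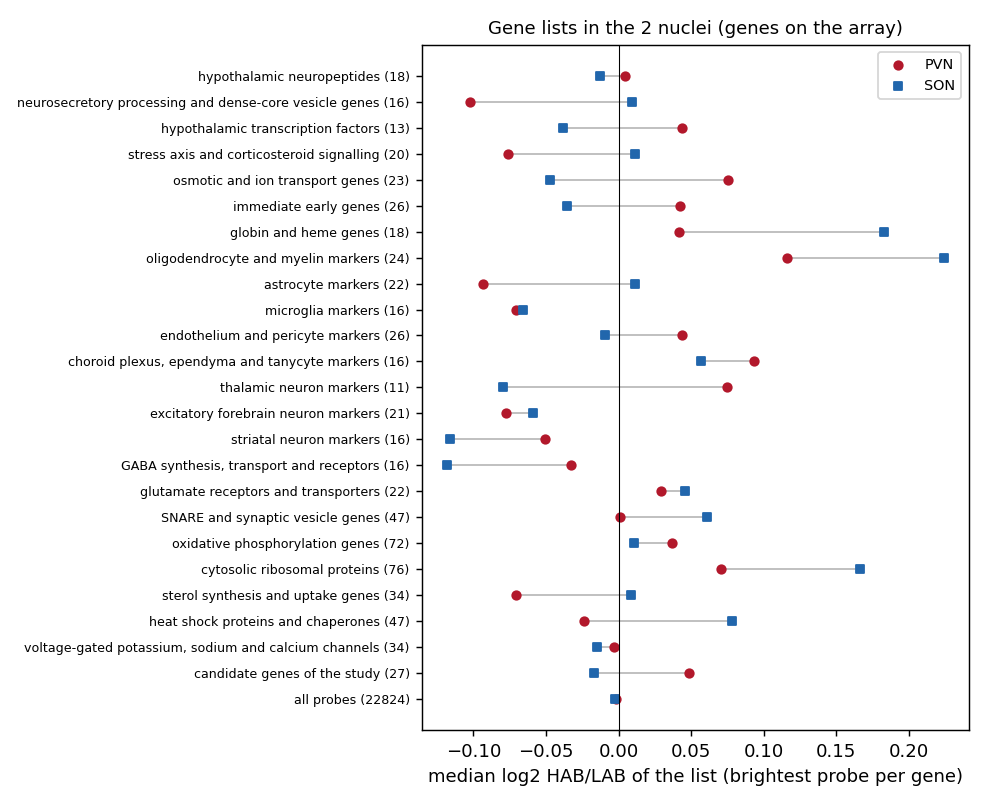
The median log2 HAB/LAB of each gene list (x axis, brightest probe per gene) is shown for the PVN as red circles and for the SON as blue squares, with the number of genes on the array in brackets. The bottom row gives all probes. Medians of the 24 lists lie within -0.12 to 0.22. Those of oligodendrocyte, ribosomal, globin and heme, glutamate receptor and SNARE genes lie to the right of 0 in both nuclei and further in the SON.

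The number of probes past the contrast depended on the analysis. It ran from 0 to 149 over 21 other settings. With all 70 arrays in the fit 55 probes passed (0.241%), and with the deposited table of log2 ratios 130 of 8408 probes passed (1.55%). Against the scanner ratios that table had slopes of 1.21 to 1.38 in the PVN and 0.764 to 0.898 in the SON. A line difference shared equally by the nuclei would thus differ between them in that table. How far this entered the count was not tested. A variance prior that follows spot intensity, chosen after the 3 calls had been seen, gave 137 (0.6%), and 141 (0.618%) with ratios centred within intensity bins. Of these, 117 (0.513%) were called in both. The Syt4 probe passed in 20 of the 21 settings with a difference of -2.22 to -2.03. Of the probes past the test in both nuclei, at most 6 were opposite in any of these settings, 6 of 52 with the deposited ratios.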

How the data were processed

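RNA of PVN and SON punches from 1 HAB pool and 1 LAB pool of 6 mice each was measured on 20 two-colour arrays. Nucleus, lines, dyes and replicate numbers are those in the titles of the arrays. Sex and age of the mice and the punch diameters are given in the methods of the study. The authors deposited scanner intensity values for spot and local background in both channels, quantified with a fixed circle and not normalized. The authors also deposited a table of log2 ratios for 18598 probes in the PVN and 8451 in the SON. Against the scanner ratios turned to HAB over LAB its columns correlated at 0.911 to 0.952, so it already runs as HAB over LAB. Its slope was 1.21 to 1.38 in the PVN and 0.764 to 0.898 in the SON, so its scale differed between nuclei. It was used as an alternative, and no genome build is given in the sources used here.

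Intensities were corrected with normexp (offset 50), smoothed by loess over 40% of the spots and then centred block by block on the print-tip medians. Control and empty spots did not enter the tests, which ran on 22824 probes. limma 3.58.1 (R 4.3.3) fitted both nuclei with a dye term in each, and the contrast was PVN minus SON, two-sided, called at 0.05 after Benjamini-Hochberg adjustment. A probe counted as above the empty spots if it exceeded their median by 2 median absolute deviations. Descriptions were matched to symbols by hand for 920 probes and through RefSeq (GRCm38.p6 table, names alone) for 6634, and 15270 had none. The fit was tested on simulated data.

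The nuclei, gene lists and named genes were chosen with earlier results of these data known. Genes to be named were those past the contrast and above the empty spots on at least 8 of 10 arrays of a pool, by size of the difference and by class, up to 3 genes per list by adjusted p, and Avp, Oxt and Syt4 in any case. Other genes were named after their values were seen. The brightest probe stands for a gene in lists. Alternatives covered background, normalization, filters, dye, arrays left out and the variance prior. The replicate numbers did not pair arrays of the nuclei. A result that involves a withheld item is not reported here.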

Additional observations from a re-analysis of the deposited data

Results flagged for a closer look

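The line difference differed between the nuclei by the test of the contrast for 3 probes, with -2.14 for 1 Syt4 probe, -1.08 for Dctn6 and 1.26 for the unnamed EST. The EST was above the empty spots on 1 of 10 SON arrays in either line, so that its value compares a PVN ratio with a SON ratio at the level of empty spots.

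In 10 of 92 sets of 5 arrays, over 23 probes, 1 array stood apart from the other four by more than 0.71 of the range, where chance flags about 1 set in 20. In the PVN, Swi5 had -0.80 on 1 array with HAB in Cy5 against -0.48 to -0.37 on the others, Tmem30a had -1.80 against -0.95 to -0.64, and Slc25a17 had -2.70 against -1.67 to -1.41. Cox8a had 1.74 on 1 PVN array with HAB in Cy3 against 0.63 to 0.90. In the SON with HAB in Cy3, Hspa8 had 1.66 on 1 array against 0.45 to 0.80, Slc25a17 had -1.74 against -2.81 to -2.52, and Cox8a had 1.65 against 0.38 to 0.48. In the same set Glo1 (1 of its 5 probes) had 0.59 on replicate 1 against -1.67 to -1.12, and Mmp15 had 1.12 on replicate 4 against -1.24 to -0.56, so that 1 array was higher in HAB where the other four were lower. With HAB in Cy5, Hbb-b1 (1 of its 3 probes) had 0.96 on SON replicate 5 against 2.32 to 2.42.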

How the results depend on the processing

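The Syt4 probe passed the contrast in all of the 21 other settings but one, with HAB in Cy3 alone (adjusted p = 0.0739). Its lower value in HAB PVN is close to the threshold and was lost in 16 of 20 fits that left out 1 array. Counts are given as contrast, PVN, SON, and then, of the contrast's probes, those opposite, past in the SON alone and past in the PVN alone. Without background correction, a planned setting, the contrast gave 1 probe, which was opposite, and 0 in the SON alone, with the counts within each nucleus moving by less than 1.5 times. Other planned settings gave 6, 73, 163, 1, 4 and 1 with print-tip loess, 1, 58, 101, 0, 1 and 0 with loess without block medians, and 14, 75, 147, 1, 10 and 2 with median centring alone. The deposited ratios gave 130, 190, 324, 6, 72 and 32. Probes above the empty spots in at least 1 of 4 pools gave 6, 77, 200, 1, 4 and 1, all 70 arrays 55, 86, 264, 1, 39 and 10, and a shared dye term 3, 62, 95, 0, 3 and 0. HAB in Cy3 alone gave 0, 1, 285, 0, 0 and 0 (2627 probes at an unadjusted p below 0.05), HAB in Cy5 alone 2, 6, 225, 0, 2 and 0, and array weights 6, 152, 53, 1, 4 and 1. With HAB in Cy5 alone the Avp contrast turned to 0.75, and over the settings it ran from -1.43 to 0.75. Mmp15 in the SON ran from -1.64 to -0.43. With the replicate block the counts were 1, 51, 68, 0, 1 and 0. Same-numbered arrays of the nuclei did not deviate together (correlations of -0.0152 to 0.0072, own number best in 1 of 10 pairs), so the numbers do not pair them.

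Settings chosen after seeing the data gave 137, 128, 438, 3, 93 and 16 with a variance prior following intensity, 149, 133, 445, 3, 96 and 19 with its robust form, and 141, 135, 434, 3, 82 and 21 with intensity-bin centring added. Probes above the empty spots in all 4 pools (6539) gave 123, 111, 378, 2, 85 and 16, and array weights with the filter on 1 of 4 pools 19, 218, 65, 1, 8 and 7. The other four added settings gave 3 each. Leaving out 1 array gave 1 to 5 probes in the contrast, 40 to 70 in the PVN and 80 to 135 in the SON, 0 to 1 opposite, 0 to 5 in the SON alone, 0 to 1 in the PVN alone, and 11 to 17 without overlap. The EST call was lost in 15 of 20 such fits. A random block for scan day was not run, since each nucleus had its own day. The cause of these changes was not tested. Of the spots in a channel, 37.5 to 74.2% were above the empty spots in the SON, against 71.5 to 88% in the PVN.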
